A study of Mus musculus with 2 samples.

Results

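Vitamin A uptake and retinoid metabolism in the mouse small intestine was followed through 10 genes, chosen by name: Bco1, Isx, Rbp2, Lrat, Adh1, Rdh16f2, Rdh7, Dhrs3, Aldh1a1 and Aldh1a2. They were chosen with earlier results of these data known, so their counts beside all genes describe the set and do not test it. Every probe of the array whose gene name or current RefSeq symbol was one of these was taken, which gave 14 probes. All 10 genes were measured, among 17162 measured genes in all. The array files list Bco1 under its older symbol Bcmo1 and Rdh16f2 as BC089597.

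Small intestine of C57BL/6 mice, 6 to 8 weeks old, gave the total RNA, which was compared between 2 diets. The control animals received a conventional chow (Conv, LASQCdietRod16). The other animals were kept free of food antigen on a diet that contained amino acids (FAF), for as many as 5 generations. The labels mention SPF and GF mice without saying which of them gave this RNA, and they give neither the segment of the gut nor whether RNA was pooled over mice. The RNA was hybridised to 2 two-colour arrays, with Conv in Cy3 and FAF in Cy5 on one and the dyes exchanged on the other. Both arrays carry the same pair of RNA codes, so they are a technical dye swap with 1 RNA sample per diet. No test between diets is possible, and every ± below says how far each array lay from the mean of both, an error of dye and hybridisation that leaves out the spread between mice.

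Absorptive enterocytes take up retinol, set free from dietary retinyl esters in the gut lumen, and carotenoids, which are taken up whole and cleaved to retinal inside the cell. Retinol is there bound by a cellular retinol binding protein, esterified and exported in chylomicrons, or it is oxidised, first to retinal by alcohol and short-chain dehydrogenases and then to retinoic acid by aldehyde dehydrogenases. Retinoic acid acts on nuclear receptors, and in the gut it is known for imprinting lymphocytes with homing receptors and for feedback on carotenoid uptake through the homeobox repressor Isx.

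Of the 10 genes, 6 were higher in FAF and 0 lower by a rule of size, against 1.53% of all measured genes higher and 0.88% lower. The rule asks for a mean difference of at least 2-fold and at least 1.5-fold in the same direction on each array. The higher genes were Rdh16f2, Adh1, Aldh1a1, Rdh7, Bco1 and Rbp2, from 2.90-fold to 6.91-fold. Lrat, Dhrs3, Aldh1a2 and Isx were not past the rule, with means from -0.12 to 0.64 on the log2 scale. The median log2 ratio of FAF over Conv was 1.55 over the 10 genes and -0.00 over all genes. Ratios were above 0 on both arrays for 9 of the 10 genes, and for 49.8% of all genes on the mean of both arrays. The 6 genes made up 2.28% of the 263 genes that passed as higher. The arrays lay from 0.01 to 0.17 from their mean for the 10 genes, where the median over all genes was 0.06 and the 95th percentile 0.17. Dhrs3, Aldh1a1, Rbp2 and Rdh7 were the least repeatable of the set, at 0.17, 0.16, 0.15 and 0.14. The mean ratio of each exceeded that distance. All 14 probes were well above background in both diets on both arrays.

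**Figure D1:**
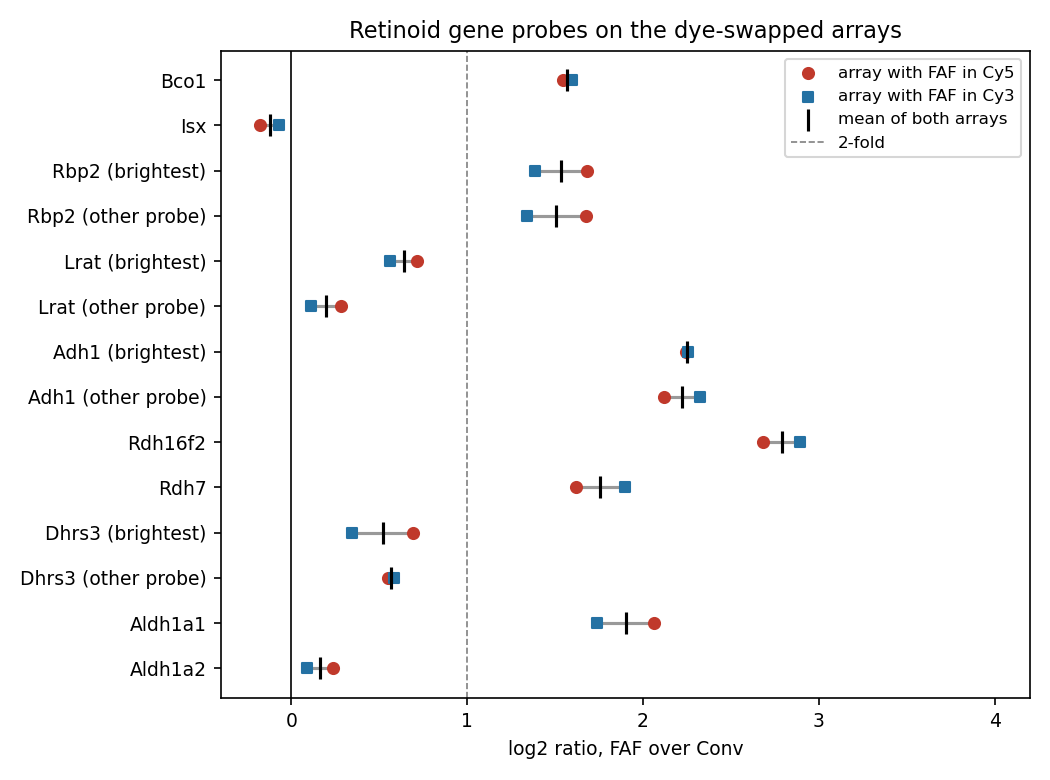
Log2 ratio of FAF over Conv (horizontal axis) for each of the 14 probes, with the array that had FAF in Cy5 as circles, the array with FAF in Cy3 as squares and their mean as a vertical tick. The probes of Bco1, Rbp2, Adh1, Rdh16f2, Rdh7 and Aldh1a1 lie right of the dashed 2-fold line on both arrays, and those of Lrat, Dhrs3, Aldh1a2 and Isx lie left of it.

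The array carries 60-base probes, and 4 are shown: the overlapping pair of Adh1, the second probe of Rbp2 and the probe of Bco1, the dimmest of the higher genes. The 2 probes of Adh1 overlap by 30 bases, given in capitals, so they are not independent readings of that transcript. One lies at chr3:137952821-137952880 (mm9), and the other crosses a splice junction between 137952851 and 137953504.
Adh1 probe A_52_P629895: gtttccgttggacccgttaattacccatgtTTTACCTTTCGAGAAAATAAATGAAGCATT
Adh1 probe A_51_P428555: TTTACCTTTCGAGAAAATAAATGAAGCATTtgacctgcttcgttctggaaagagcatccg
The dimmer probe of Rbp2 also crosses an intron, from 98408294 to 98409989 on chr9 in mm9, and shares no long stretch with the second Rbp2 probe. The single Bco1 probe lies at chr8:119656996-119657055 in mm9.
Rbp2 probe A_51_P399143: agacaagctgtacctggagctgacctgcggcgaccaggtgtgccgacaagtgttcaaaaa
Bco1 probe A_51_P374137: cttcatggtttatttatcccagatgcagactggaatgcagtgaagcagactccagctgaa
None of the 14 probes shared more than 16 bases in a row with a probe of another gene on the array. That longest stretch belonged to Aldh1a2, and for the paralogues Rdh16f2 and Rdh7 the figure was 14 bases or fewer. The mm9 annotation was not used here, so exons and UTRs are not assigned to the probes.

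Carotenoids taken up by the cell are cleaved first. Bco1, the enzyme that splits beta-carotene into retinal, had a normalised log2 intensity in Conv of 7.29 on the array with FAF in Cy5 and of 7.01 on the array with FAF in Cy3. In FAF the same probe stood at 8.84 and 8.61, so that both FAF values lay above both Conv values. The log2 ratio was 1.57 ± 0.03, a 2.97-fold higher level in FAF. Bco1 was the dimmest of the 6 higher genes: in its weakest channel the signal was 2.67 times the local background. The value moved with the treatment of background: the log2 ratio was 1.95 with an offset of 10 intensity units in place of 50, 2.08 with no offset, and the log ratio deposited by the scanner software gave 4.76-fold.

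Isx, the intestinal homeobox factor known to repress Bco1 and the scavenger receptor gene Scarb1, differed little. Its intensity in Conv was 13.22 and 13.15 and in FAF 13.05 and 13.09, on the arrays with FAF in Cy5 and in Cy3. Both arrays gave the same sign, and the mean of -0.12 ± 0.06 was a 1.09-fold lower level in FAF. Scarb1, which takes up carotenoids and other lipids, was at 0.62 ± 0.09 and not past the rule.

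Rbp2, the cellular retinol binding protein of absorptive enterocytes, was higher in FAF by both of its probes. The brighter probe, at chr9:98410012-98410071 (mm9), had 13.27 and 13.51 in Conv and 14.95 and 14.90 in FAF. Its ratio was 1.53 ± 0.15, or 2.90-fold, and the probe printed above gave 1.51 ± 0.17. The nonoverlapping probes therefore differed by less than the arrays did. With each array only centred on its median, in place of loess, the array with FAF in Cy3 gave 1.49-fold and Rbp2 no longer met the limit of 1.5-fold per array.

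Lrat, the acyltransferase that turns retinol into retinyl esters, stayed under the rule of size. Its brighter probe had 8.99 and 9.10 in Conv and 9.70 and 9.66 in FAF, with a ratio of 0.64 ± 0.08, or 1.56-fold. The dimmer probe gave 0.20 ± 0.08, or 1.15-fold, so the 2 probes differed by more than the arrays did. The size of the Lrat difference is therefore uncertain, and the 2 probe means do not bound it.

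**Figure D2:**
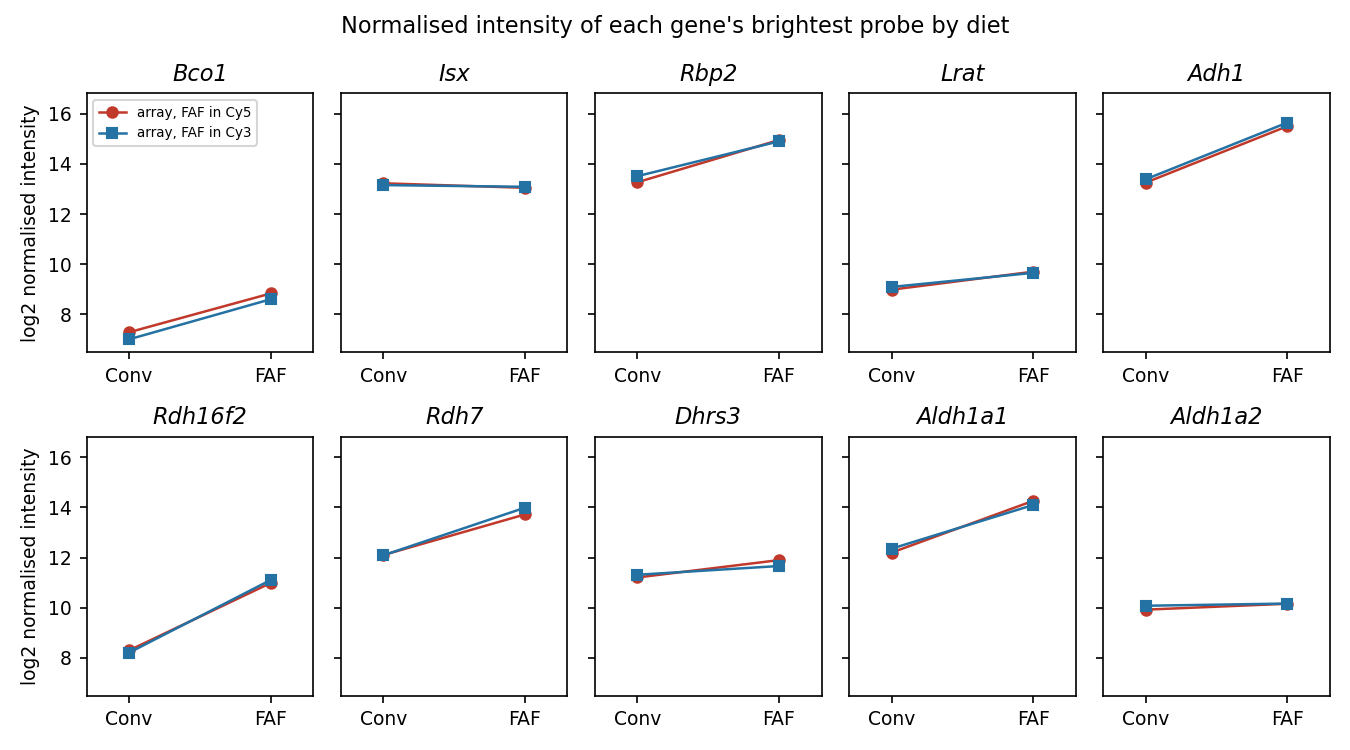
Normalised log2 intensity (vertical axis) of the brightest probe of each gene in Conv and FAF, with 1 line per array; intensities of different probes are not comparable with each other. The lines of Adh1, Rdh16f2, Rdh7, Aldh1a1, Bco1 and Rbp2 climb on both arrays, while those of Isx and Aldh1a2 are close to flat.

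The largest differences of the set were those of Rdh16f2 and Adh1. Rdh16f2, a short-chain dehydrogenase of the retinol dehydrogenase family, had 8.30 and 8.21 in Conv against 10.99 and 11.11 in FAF. Its ratio of 2.79 ± 0.11, or 6.91-fold, ranked 6 among the 17162 genes, counted from the highest. Rdh7, a close relative, had 12.10 and 12.09 in Conv and 13.72 and 13.98 in FAF. That is a ratio of 1.76 ± 0.14, or 3.38-fold, and rank 53. In both genes each FAF value lay above each Conv value by several times the distance between arrays.

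Adh1, the cytosolic alcohol dehydrogenase that oxidises retinol along with ethanol and other alcohols, was the most repeatable of the set. Conv values were 13.25 and 13.38 and FAF values 15.50 and 15.64. The ratio was 2.25 ± 0.01, or 4.76-fold, and rank 17, and the overlapping second probe gave 2.22 ± 0.10. Dhrs3, which works in the opposite direction and reduces retinal to retinol, was not past the rule. It had 11.21 and 11.31 in Conv and 11.90 and 11.66 in FAF, a ratio of 0.52 ± 0.17. Its second probe gave 0.57 ± 0.02, within the distance between the arrays.

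The enzymes that make retinoic acid from retinal differed from each other. Aldh1a1, known as the main retinal dehydrogenase of the intestinal epithelium, had 12.20 and 12.35 in Conv and 14.26 and 14.09 in FAF. Its ratio was 1.90 ± 0.16, or 3.73-fold, and rank 37. Aldh1a2, the form known from dendritic and stromal cells of the gut, had 9.93 and 10.08 in Conv and 10.16 and 10.17 in FAF. The FAF values exceeded the Conv values by less than 0.25 on either array, and the ratio of 0.16 ± 0.07 was 1.12-fold. Whether these differences reflect RNA per cell or numbers of cells cannot be told apart in bulk tissue.

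**Figure D3:**
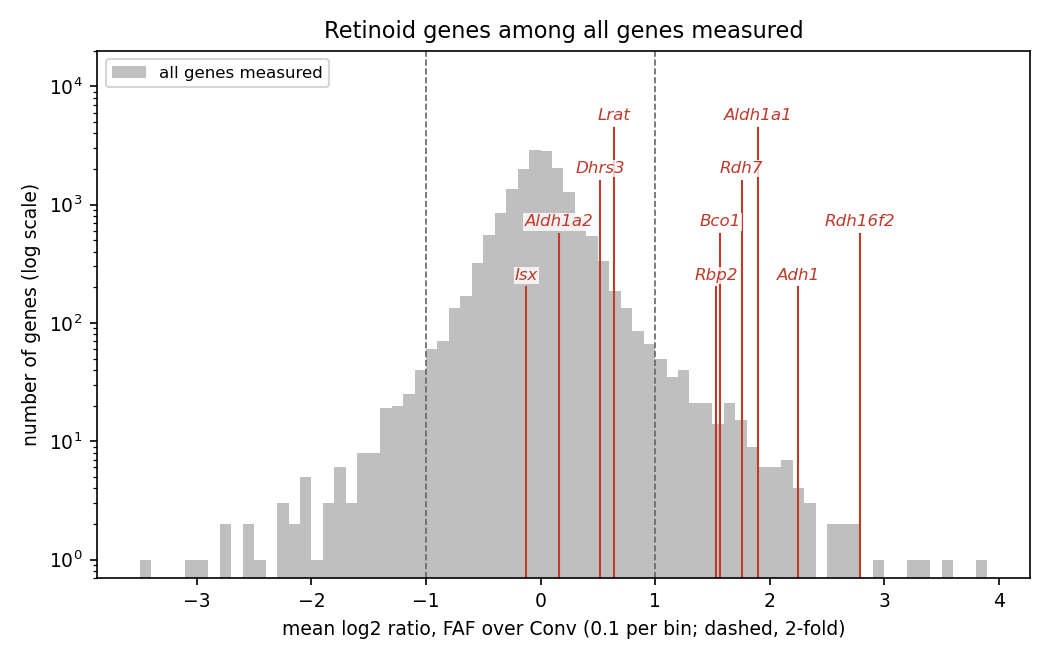
Number of genes (vertical axis, log scale) by mean log2 ratio of FAF over Conv in bins of 0.1, for the 17162 measured genes in grey, with the 10 retinoid genes as vertical lines and 2-fold as dashed lines. Rdh16f2 at 2.79 and Adh1 at 2.25 lie in the sparse right tail, and Isx at -0.12 and Aldh1a2 at 0.16 within the centre.

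Several of these genes lie beside paralogues, and the neighbours were not uniformly higher; this view of the clusters was added after the values were seen. Along chromosome 10, in the RefSeq order of GRCm38.p6, Rdh9 stood at 0.38 ± 0.12, Rdh16 at 0.45 ± 0.05, the pseudogene Rdh18-ps at -0.03 ± 0.03 and Rdh19 at -0.03 ± 0.01, followed by Rdh16f2 and Rdh7. The 2 genes past the rule were the last in that row. Rdh1, at its start, was in neither diet well above background. Along chromosome 3, Adh7 was not well above background, and Adh1 was followed by Adh6a at 1.06 ± 0.03 and Adh4 at 1.13 ± 0.09. Between Adh6a and Adh4 lies Adh6b, which had no probe on the array. Adh5, the ubiquitous formaldehyde-handling member, stood at 0.15 ± 0.05. Adh6a had a second probe at 0.70 and did not pass when probes were averaged, at 0.88. On chromosome 19 Aldh1a7, a paralogue of Aldh1a1, was at 1.18 ± 0.09. Probes of Rdh, Adh and Aldh paralogues can share labelled RNA where their sequences are alike, which the comparison of probe letters only partly covers.

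Other retinoid genes, genes that respond to retinoic acid and intestinal transcription factors were read from 7 lists with 82 genes in all, of which 67 were measured. By the rule of size 9 of them were higher and 1 was lower, against 1.53% and 0.88% of all measured genes, and the median log2 ratio was 0.15. The lists were chosen with earlier results of these data known, so their counts describe them and do not test them. Of those 9 higher genes, 2 were in the list of intestinal transcription factors. Among 7 measured genes of retinoid binding and transport, 1 was higher: Cd36, a receptor for fatty acids and other lipids, at 1.78 ± 0.11. The list had a median of 0.17. Stra6, the cell surface receptor for plasma retinol binding protein, was at -0.12 ± 0.05, and Rbp4, that plasma carrier, at 0.17 ± 0.05.

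Genes of retinyl ester synthesis and hydrolysis, listed together with the second carotenoid oxygenase Bco2, had 3 of 11 higher, 1 lower and a median of 0.50. Aadac, an esterase of the endoplasmic reticulum, was at 1.98 ± 0.02. Dgat2, which forms triglyceride, was at 1.88 ± 0.05, and the retinol saturase Retsat at 1.34 ± 0.05. Dgat1 of the same list was at 0.50 ± 0.04 and not past the rule. Lpl, the lipoprotein lipase, was lower at -1.27 ± 0.19, but its second probe gave -0.72 and the mean over probes, -0.998, just missed the rule. Bco2 itself stood at 0.72 ± 0.24. These members are not specific to retinoids: most handle fatty acid esters as well.

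Of 16 other retinol and retinal dehydrogenases, 2 were higher, Adh4 and Adh6a, and the median was 0.31. Akr1b8, an aldo-keto reductase, was lowest at -0.95 ± 0.04 and not past the rule. Of 5 measured genes of retinoic acid synthesis and clearance, 1 was higher, Aldh1a7, and the median was 0.36. The clearing enzyme Cyp26b1 was at 0.36 ± 0.24, with the arrays at 0.60 and 0.12, so that they lay farther apart than their mean lay from 0. Cyp26a1 was well above background in neither diet.

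Downstream of retinoic acid, no list member of the receptors and partners was past the rule (0 of 10, median -0.04). The 2 of largest size were Rxra, the shared partner of many nuclear receptors, at 0.35 ± 0.06 and the corepressor Nrip1 at 0.34 ± 0.13. Rara, Rarb and Rarg, the retinoic acid receptors, ranged from -0.12 to 0.15, with Rara well above background in FAF only. Among 7 measured genes of gut lymphocyte homing and differentiation known to respond to retinoic acid, 0 passed. Their ratios ran from -0.76 to 0.94 around a median of -0.18. With the software's log ratio or the deposited table, 1 of the 7 passed as higher. Itgb7, a chain of the gut homing integrin, was at -0.76 ± 0.03. Ccr9, the receptor for the gut chemokine Ccl25, was at -0.57 ± 0.05, and Foxp3 was well above background in neither diet.

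Of 11 measured intestinal transcription factors, 2 were higher: Creb3l3, a factor of lipid metabolism, at 1.34 ± 0.08, and Ppara, the fatty acid receptor, at 1.16 ± 0.10. The median of that list was 0.02. Cdx2 and Hnf4a, which define the intestinal epithelium, were at -0.09 ± 0.03 and -0.12 ± 0.04.

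The tissue label was checked against markers, and several marker lists also differed between the diets, some higher and some lower in FAF. All 10 enterocyte markers were measured. Their log2 ratios ran from -0.15 to 2.02 around a median of 0.77, and 4 passed as higher and 0 as lower. Fabp1 was at 2.02 ± 0.14, sucrase-isomaltase Sis at 1.70 ± 0.07, Alpi at 1.31 ± 0.10 and Apob at 1.16 ± 0.04, or 0.97 as the mean over its probes. Crypt and cell cycle markers had 3 of 8 lower and a median of -0.81. Those 3, Ccnb1, Cdc20 and Plk1, fell short of 2-fold, at -0.94, -0.98 and -0.92, when the array with FAF in Cy3 was left out. Stromal and mesothelial markers had 2 of 6 lower (median -0.85), of which Dcn was at -0.98 without the array with FAF in Cy5 and Col1a1 at -0.86 as the mean over its probes, and smooth muscle markers 0 of 7 past the rule (median -0.58) with all 7 below 0. Fat tissue markers had 4 of 7 lower and 1 higher, with log2 ratios from -2.72 to 1.06 around a median of -1.13. The higher one was the lipid droplet gene Cidec, at 0.95 where only the Cy5-labelled FAF array was used. With each array only centred on its median, in place of loess, the calls of Apob, the 3 crypt markers, both stromal markers and Cidec were lost, as were those of Lct and, in the 7 lists above, Adh6a, Aldh1a7, Ppara and Lpl. Whether these markers have a part in the retinoid differences was not tested.

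Markers of dendritic cells, where Aldh1a2 is known, had 0 of 8 past the rule and a median of 0.05, and hepatocyte markers had 0 of 4 and a median of -0.24, with Ttr well above background in neither diet. For position along the gut, proximal markers had 2 of 6 higher, lactase Lct at 1.62 ± 0.26 and Adh6a, and a median of 0.17, while distal markers had 0 of 4 and a median of 0.00. In neither diet were the ileal markers Fabp6 and Fgf15 well above background, nor was the proximal marker Pdx1. The 4 measured distal markers, Slc10a2 among them, were well above background in both diets, with ratios from -0.58 to 0.52. Whether the sampled segment has a part in the retinoid differences was not tested.

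**Figure D4:**
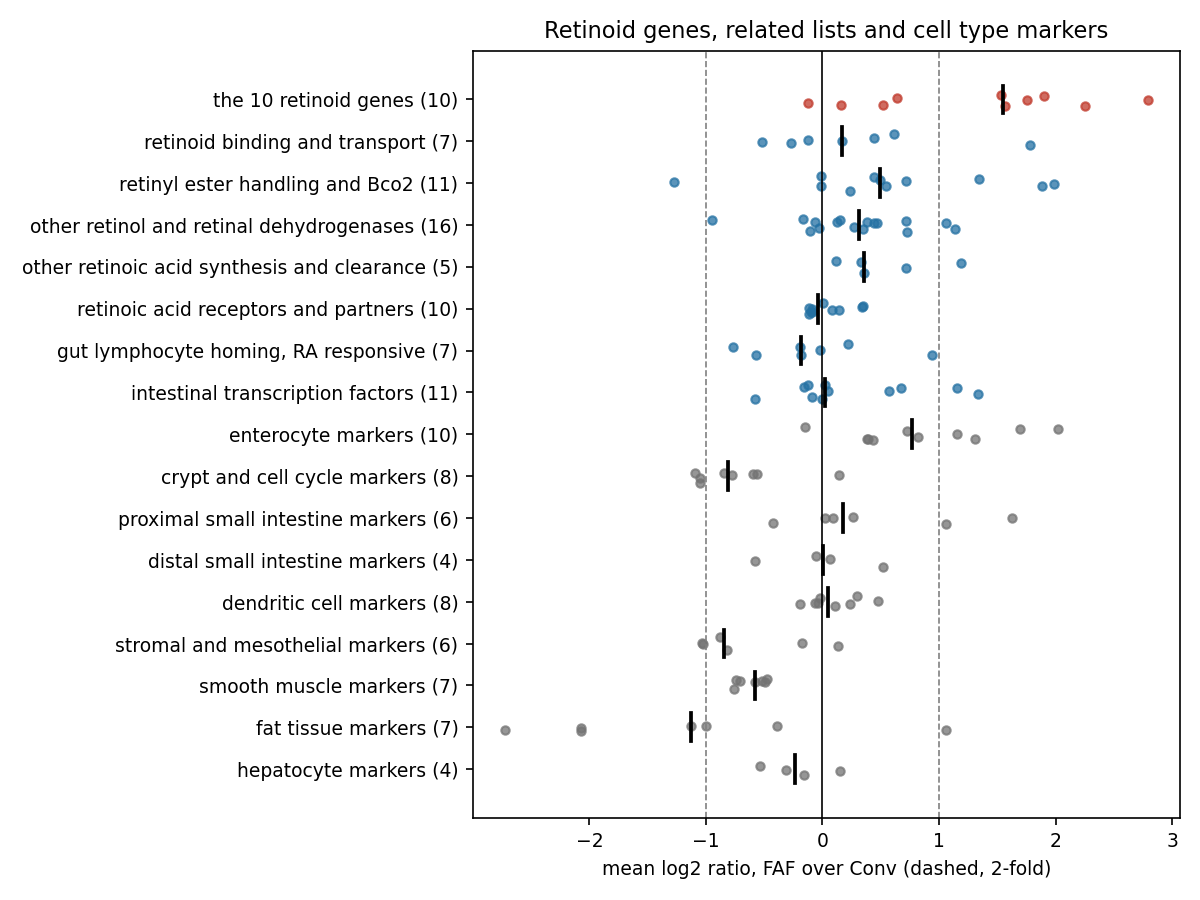
Mean log2 ratio of FAF over Conv (horizontal axis) for each measured gene, in 1 row per list with the number measured in brackets: the 10 retinoid genes in red, other retinoid lists and intestinal transcription factors in blue, cell type and position markers in grey, medians as black bars and 2-fold as dashed lines. The median of the 10 genes, 1.55, lies right of 2-fold, while those of the receptor list, -0.04, and the lymphocyte homing list, -0.18, lie near 0.

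The sequences upstream of the gene starts were searched for the 6-base core that many nuclear receptors bind, because Rbp2 and Bco1 are genes in which such elements are known. All 10 genes were found in the RefSeq promoter table (GRCm38.p6), from which the 250 bases before each annotated start were used; some genes have several starts. The motifs were chosen after these sequences were seen, and both strands were searched. That core, AGGTCA, occurred in 4 of the 10 genes, Bco1, Rbp2, Rdh16f2 and Rdh7, and in 15.8% of the 27025 genes of the table. Of those 4 genes all are among the 6 that were higher in FAF; Adh1 and Aldh1a1 are the other two.

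The longer form CAAAGGTCA, which contains the core, occurred in Bco1 and Rbp2 and in 0.485% of genes. The direct repeat AGGTCANAGGTCA occurred in Bco1 alone of the 10, and in 11 genes of the table (0.0407%). Spacers of 2 and 5 bases, the other classical arrangements for retinoic acid receptors, occurred in 0 of the 10 genes and in 2 and 3 genes of the table. In Bco1 the repeat lay on the opposite strand at bases -56 to -44 from the start, and in Rbp2 the longer form lay on the opposite strand at -58 to -50. The upstream windows are printed for Bco1, Rbp2 and Rdh16f2, in which the cores or the repeat are in capitals, and for Adh1, which held neither the core nor the repeat.
Bco1, chr8:117095615-117095864, plus strand: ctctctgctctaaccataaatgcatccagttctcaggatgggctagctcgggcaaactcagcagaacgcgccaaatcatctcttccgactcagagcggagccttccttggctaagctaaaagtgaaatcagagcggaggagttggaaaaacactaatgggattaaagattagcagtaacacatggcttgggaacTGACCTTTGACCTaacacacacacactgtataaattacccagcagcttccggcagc
Rbp2, chr9:98490287-98490536, plus strand: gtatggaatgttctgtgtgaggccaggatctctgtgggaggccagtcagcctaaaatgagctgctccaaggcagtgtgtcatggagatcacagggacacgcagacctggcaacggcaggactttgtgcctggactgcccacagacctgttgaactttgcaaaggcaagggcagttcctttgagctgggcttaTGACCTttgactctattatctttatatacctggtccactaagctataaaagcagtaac
Rdh16f2, chr10:127866226-127866475, plus strand: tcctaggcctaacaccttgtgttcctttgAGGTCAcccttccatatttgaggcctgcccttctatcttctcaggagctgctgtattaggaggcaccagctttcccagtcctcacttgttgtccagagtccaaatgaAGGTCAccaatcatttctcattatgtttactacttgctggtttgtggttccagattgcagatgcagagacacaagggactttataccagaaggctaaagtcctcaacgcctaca
Adh1, chr3:138277335-138277584, plus strand: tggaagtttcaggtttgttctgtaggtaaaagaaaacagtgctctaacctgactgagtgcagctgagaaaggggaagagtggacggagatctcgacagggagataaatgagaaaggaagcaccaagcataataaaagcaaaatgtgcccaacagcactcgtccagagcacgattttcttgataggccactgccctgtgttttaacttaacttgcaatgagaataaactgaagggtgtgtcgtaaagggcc
The core in Rdh7 began at -105, on the opposite strand. Over all measured genes that carried the core, 45 of 1553 (2.90%) passed as higher in FAF and 15 as lower, at a median of 0.00. Of the 11475 measured genes in the promoter table, 1.74% were higher. Those 45 include Bco1, Rbp2, Rdh16f2 and Rdh7, whose sequences were seen before the motif was chosen, so the 2 shares do not test it. Of the measured genes with the longer form, 5 of 48 passed as higher and 0 as lower, at a median of 0.06. Bco1 and Rbp2, whose windows prompted the search, are 2 of those 5. A GATA motif, AGATAA, occurred in Adh1, Aldh1a1 and Rbp2 and in 11.4% of genes, and a CDX motif, TTTATG, in Bco1 and Rdh7 and in 12.4%. Isx, Lrat, Dhrs3 and Aldh1a2 held none of these motifs in their windows. These matches describe letters in a window and not binding.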

How the data were processed

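RNA from 2 diets, 1 sample each, was measured on 2 dye-swapped Agilent arrays. Per the file headers, the deposited scanner output came from version 11.5.1.1 of Agilent Feature Extraction and gives the linear intensity of both dyes per spot, the local background and quality flags. The log10 ratio of Cy5 over Cy3 in that deposited output equals the series' value table. Further steps by the authors are not given in the sources used. Mean intensities were corrected by normexp (offset 50) and loess within each array with limma 3.58.1 in R 4.3.3, and turned to FAF over Conv by the labelled dyes. Intensities by diet are after Aquantile scaling. Control and outlier-flagged spots were left out; 0 spots were saturated. A probe was measured when well above background in at least 1 diet on both arrays (25440 of 41165), and the brightest measured probe stood for its gene. RefSeq named 27662 probes, and 13503 kept the file's name. Over all genes, 263 were higher and 151 lower, the arrays' median distance from their mean was 0.06, and the number of arrays limits the precision. When the dyes were not turned, 0 genes passed. The rule of size was run on simulated ratios. Their noise was set from the difference between the 2 arrays and leaves out the spread between mice. Members and gene lists were chosen with earlier results of these data known. Named list genes are those past the rule (up to 4, largest first), otherwise the 2 largest; some items are not reported here. Other genes of the lists that are named, such as Stra6, Rbp4, Bco2, Dgat1, Akr1b8, Cyp26b1, Ccr9, Cdx2 and Hnf4a, were added after their values were seen. In all, 15 alternatives were tried in background, normalisation, filter, probe choice, arrays and threshold.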

Additional observations from a re-analysis of the deposited data

How the results depend on the processing

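Under the alternatives that give a ratio, no member's mean over arrays changed its sign, though under median centring single arrays did: Dhrs3 at -0.31 and Aldh1a2 at -0.50 with FAF in Cy3, and Isx at 0.64 with FAF in Cy5. Between 5 and 7 members were higher under the 15 alternatives except the 4-fold limit, which left 2, Adh1 and Rdh16f2, and 0 members were lower under each. Some alternatives could not move these counts. Aquantile scaling left the ratios as they were, and the deposited table repeats the software's log ratio. Changes of the filter on dim probes cannot act on members that were all well above background. Median centring left 5 by dropping Rbp2, whose mean was 1.55, and the arrays then correlated at only 0.16 over genes, against 0.90 after loess. A 1.5-fold limit on the mean, with only the same direction asked of each array, added Lrat. Counts at 1.5-fold below are from that setting. Leaving out either array kept the count at 6. The median of the members was 1.64 with the software's log ratio, the deposited table, no background correction and offset 0, and 1.65 with offset 10. Bco1 ranged from 1.54 to 2.25 and Rdh16f2 from 2.68 to 3.09, and Adh1 from 2.24 to 2.27. Over all genes, 487 were higher and 350 lower with the software's log ratio or the deposited table, 775 and 616 at 1.5-fold, and 31 and 18 at 4-fold; offset 0 gave 236 lower and median centring 82 lower. Each array alone gave 268 to 286 higher and 144 to 172 lower. Of the genes in the 7 lists, 16 were higher at 1.5-fold, 3 of them intestinal transcription factors, and 0 at 4-fold. Lower ones numbered 3 at 1.5-fold, and 0 at 4-fold, under median centring and with the mean over probes. Among list genes past the rule, median centring also dropped Adh6a, Aldh1a7, Ppara, Lpl, Apob, Lct, Ccnb1, Cdc20, Plk1, Col1a1, Dcn and Cidec, and the mean over probes dropped Adh6a, Lpl, Apob, Ccnb1 and Col1a1. Apart from limits and probe choice, which act by construction, the cause was not tested. No paired analysis was possible because the 2 arrays hold the same 2 RNA samples. Dim probes such as that of Bco1 are limited by signal over background.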
